A study of Mus musculus with 6 samples.

Results

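The genes of glycolysis and hypoxia sensing were followed in γδ T cells of the mouse spleen that did or did not express the transcription factor Eomes. The 34 genes were taken by name: 2 glucose transporters, 3 hexokinases and glucose-6-phosphate isomerase, 3 phosphofructokinases and 4 PFKFB enzymes, 10 genes from aldolase to enolase, pyruvate kinase, 2 lactate dehydrogenases, 2 monocarboxylate transporters, a pyruvate dehydrogenase subunit and its kinase, and 4 genes of the HIF pathway. Each gene was represented by 1 probe. All 34 were among the 16405 genes tested, of 30342 gene names on the array, and 31 were above background on all 6 arrays. Hk3 was above background on 5 arrays, and Pfkfb2 and Eno2 on 4 each.

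Total RNA was hybridised to 6 Agilent arrays with a single dye, 3 of Eomes-positive (GFP+) and 3 of Eomes-negative (GFP-) γδ T cells. Every sample came from Eomes-IRES-GFP (Eomestm1.1Twa) reporter mice on a C57BL6 background, without treatment. Both groups therefore carried the reporter allele, and the gate reads the GFP made from that allele. Each of 3 independent sorts pooled 4 to 6 spleens and gave both groups: sort 1 from mice of 9 weeks, sort 2 of 9.5 weeks and sort 3 of 7.5 weeks. B220, CD4 and CD8β cells had been depleted, and CD3+ TCRγδ+ TCRβ- cells were taken. Slide 1 held both samples of sort 1 and the Eomes-negative sample of sort 2, slide 2 the Eomes-positive sample of sort 2, and slide 3 both samples of sort 3. Slide 2 therefore adds nothing to a difference taken within slides, and that of slide 1 mixes 2 sorts. Sorts 1 and 2 gave 9 ng of RNA for amplification and sort 3 gave 4 ng. As pools, the arrays hold the spread between sorts and not between single mice.

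Glycolysis splits glucose into pyruvate in the cytosol. Glucose enters through transporters of the Slc2a family, is trapped and committed by hexokinase and phosphofructokinase, cleaved by aldolase, and yields ATP at phosphoglycerate kinase and pyruvate kinase. Pyruvate then becomes lactate through lactate dehydrogenase and leaves through monocarboxylate transporters, or enters the mitochondria through pyruvate dehydrogenase. In oxygenated cells the prolyl hydroxylases of the Egln family mark HIF-1α for destruction by the Vhl ligase. In hypoxia, or after antigen receptor signalling in T cells, HIF-1α binds short DNA elements and raises many glycolytic genes, as Myc also does. Effector T cells are known for high glycolytic flux. Transcript levels, the only quantity measured here, do not report flux.

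The arrays and labels were first checked. Eomes itself had log2 levels, relative to the 75th percentile of each array, of 5.31, 4.96 and 4.48 in the Eomes-positive samples of sorts 1, 2 and 3 and of 0.72, 0.88 and -1.14 in the Eomes-negative samples. The difference was 4.76 ± 0.59 (SE, n = 3 per group; adjusted p = 0.0178, limma). The T cell genes Cd3d, Cd3e and Cd3g lay between 5.48 and 7.15 on every array. Cd247, which encodes the CD3ζ chain, lay between 3.07 and 3.59. Thy1, a surface protein of T cells, was lower in the Eomes-positive sample of every sort, by -0.95 (adjusted p = 0.0294 with sort as a factor and 0.386 with group alone, limma). No constant gene of the γδ receptor was matched by name, and Trac was not matched either. The raw 75th percentile was 1581 to 1684 in sorts 1 and 2 and 534 and 549 in sort 3, and 47.7% to 56.6% of probes were above background. Myeloid and erythroid transcripts were present and differed between sorts. The summed level of 6 myeloid genes (Lyz2, Csf1r, Itgam, Cd14, Adgre1 and Mpo), as a multiple of the 75th percentile, was 12.6 to 70.7 in Eomes-positive and 17.7 to 96.0 in Eomes-negative cells, highest in sort 2 in both. Summed erythroid genes gave 18.3 to 209 and 17.8 to 164. Myeloid genes also differed between the groups within sorts. In sorts 1, 2 and 3 Adgre1 differed by -3.31, -1.57 and 1.03 and Csf1r by -2.69, -1.40 and 0.83, Eomes-positive minus Eomes-negative. Cd14 differed by -3.01, -1.57 and 1.01. Lyz2 was higher in every sort, by 0.55, 0.06 and 0.58, and Itgam and Mpo had no common direction. Of the 4 platelet genes, 1 passed the filter on dim probes, and of the 5 B cell genes Cd79b passed the test with sort as a factor, at -0.92.

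Of the 34 genes, 0 rose and 0 fell in Eomes-positive against Eomes-negative cells in limma's fit of group alone, at an adjusted p under 0.05. The same fit called 1.2% of all genes tested higher and 1.57% lower. At an unadjusted p under 0.05 it gave 3 of the 34 (8.82%) and 2008 of all genes (12.2%). With sort as a factor (a block for the replicate number, since both samples of a sort vary together), 1 gene rose, the neuronal-type glucose transporter Slc2a3, and 1 fell, the aldolase isozyme Aldoc. This fit called 3.65% of all genes higher and 4.33% lower, and at an unadjusted p under 0.05 gave 10 of the 34 (29.4%) and 26.2% of all genes. The shares for the 34 lay near those of all genes. In such bulk samples, fewer cells of a type and less RNA per cell cannot be told apart.

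The differences of the 34 genes were centred near 0. Their median was -0.002 on the log2 scale, beside -0.01 over all genes tested, with 17 genes above 0 and 17 below. For 30 of the 34 the difference was under 0.5 in size (88.2%, against 80.5% of all genes). The 95% interval lay within 2-fold in both directions for 20 genes with group alone (58.8%, against 60.5% of all genes). With sort as a factor it did so for 29 (85.3%, against 80.2% of all genes). The 5 others were Slc2a3, Hk3, Pfkfb1, Aldoc and Slc16a3. In 21 genes the difference had one sign in all 3 sorts, 11 of them higher and 10 lower, which is 61.8% against 52.4% of all genes.

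**Figure D1:**
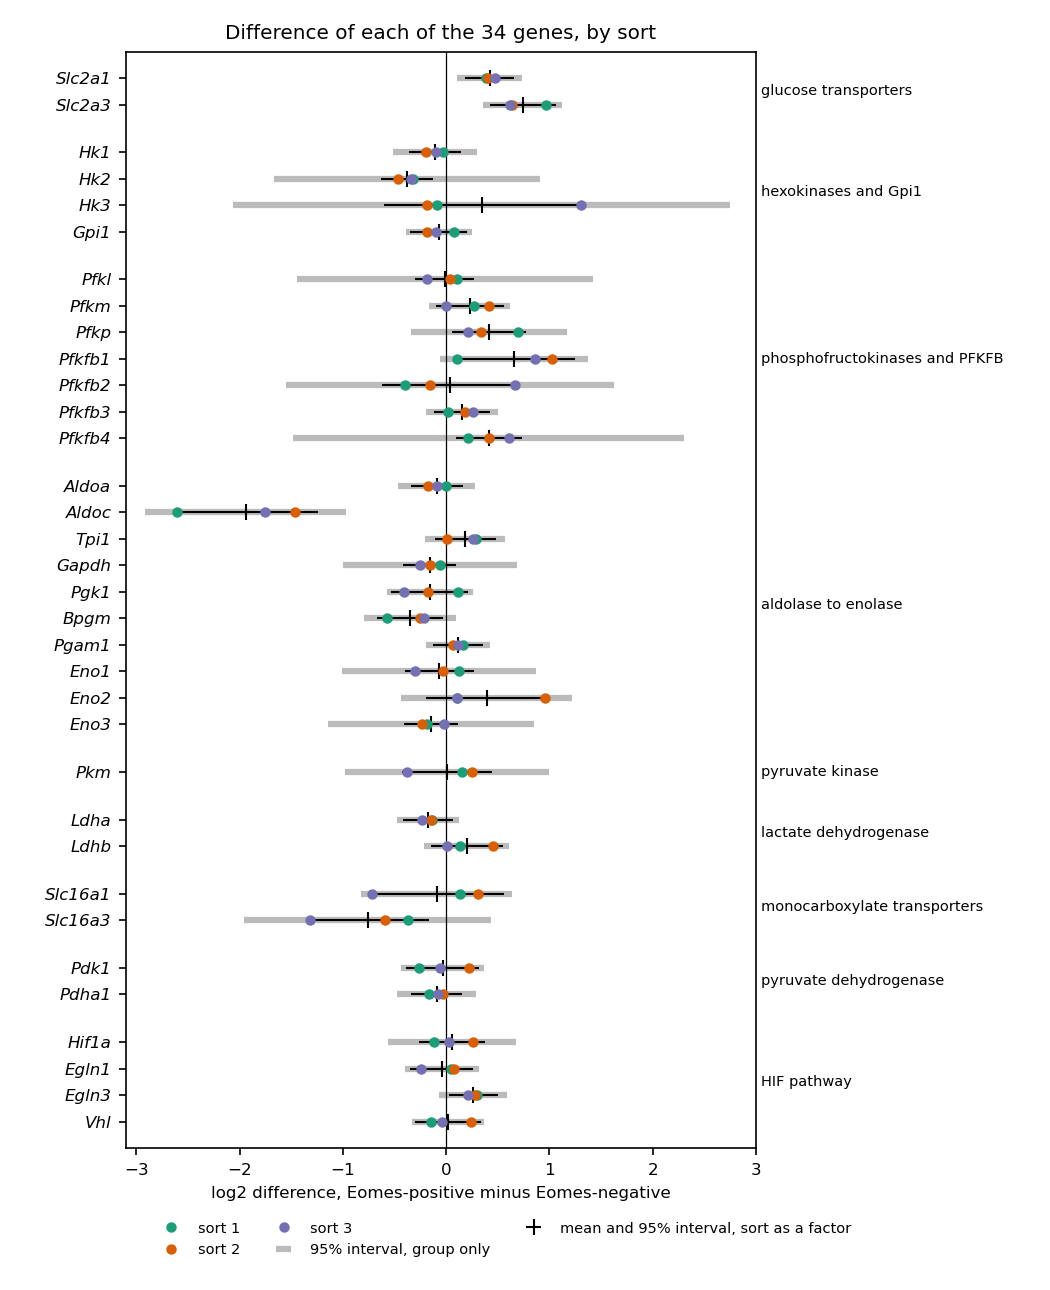
Log2 difference of Eomes-positive minus Eomes-negative cells for each of the 34 genes, by role. Coloured points are the 3 sorts, the black tick and line the mean and its 95% interval with sort as a factor, and the grey bar the 95% interval of the fit with group alone. Slc2a3 lies to the right and Aldoc to the left in all sorts, and 30 of the 34 means are under 0.5 in size.

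The arrays of the groups did not overlap for 6 of the 34 genes. All 3 Eomes-positive arrays were above all 3 Eomes-negative arrays for Slc2a1, Slc2a3 and Egln3 (8.82%, against 8.53% of all genes). The reverse held for Aldoc, Bpgm and Ldha (8.82%, against 9.68%). Both shares are close to the background, so the count says nothing particular about these genes.

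Both glucose transporters were higher in Eomes-positive cells in every sort. Slc2a3 encodes GLUT3, a high-affinity transporter that T cells also use. Its probe (mm9 chr6:122678075-122678134) gave 1.58, 1.87 and 1.97 in the Eomes-negative samples of sorts 1, 2 and 3 and 2.55, 2.51 and 2.59 in the Eomes-positive samples. The Eomes-positive values lay within 0.1 of each other and the Eomes-negative values were lower and more spread, with no overlap. The means were 2.55 ± 0.04 and 1.81 ± 0.20 (SD, n = 3 each), a difference of 0.74 ± 0.16 (SE) or 1.67-fold. The fit of group alone gave an adjusted p of 0.0864, the fit with sort as a factor 0.0419 and the fit with slide as a factor 0.153 (limma). Leaving out sort 1, 2 or 3 kept a difference of 0.63 to 0.80, but each ended the call with sort as a factor, at adjusted p of 0.118 to 0.146.

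Slc2a1 encodes GLUT1, the transporter that activated T cells raise. Its level was 2.55, 2.41 and 2.48 in Eomes-negative and 2.93, 2.81 and 2.95 in Eomes-positive cells of sorts 1, 2 and 3. All 3 Eomes-positive values were above all Eomes-negative ones, and the step was alike in the sorts, at 0.39, 0.40 and 0.47. The difference was 0.42 ± 0.13 (SE), 1.34-fold, with an adjusted p of 0.235 for group alone and 0.0731 with sort as a factor (limma), so it did not pass the test. The interval with sort as a factor ran from 0.18 to 0.66. Within slide 1 and slide 3, Slc2a1 differed by 0.45 and 0.47 and Slc2a3 by 0.82 and 0.62.

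The Slc2a1 promoter is shown because the gene is a textbook HIF target and its step was of nearly one size in the sorts. It spans chr4:119108495-119108794 on the plus strand of GRCm38.p6, 250 bases before to 50 after the start of the gene in RefSeq. Capitals mark the HIF core, ACGTG or GCGTG, on either strand. The window held 1 of each.
Slc2a1 promoter: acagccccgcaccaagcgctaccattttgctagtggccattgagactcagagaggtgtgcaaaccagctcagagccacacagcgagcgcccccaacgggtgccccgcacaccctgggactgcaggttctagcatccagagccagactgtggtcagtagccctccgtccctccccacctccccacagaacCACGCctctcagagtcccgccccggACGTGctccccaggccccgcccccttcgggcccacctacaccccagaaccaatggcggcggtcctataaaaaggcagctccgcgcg
RefSeq promoter windows matched 33 of the 34 genes, all but Slc2a3, in 51 windows. A HIF core was present in 38 of these 51 windows (74.5%), against 43.8% of all 32851 windows. By single motif, ACGTG was in 45.1% against 19.6%, GCGTG in 51.0% against 32.4%, and the E-box CACGTG, which contains ACGTG and is the element of Myc and its relatives, in 11.8% against 7.15%. Each of these motifs contains CG, the windows were not matched for base composition, and some windows of a gene overlap. The shares therefore do not show an excess of HIF sites. A match of letters is a description, not a bound site.

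**Figure D2:**
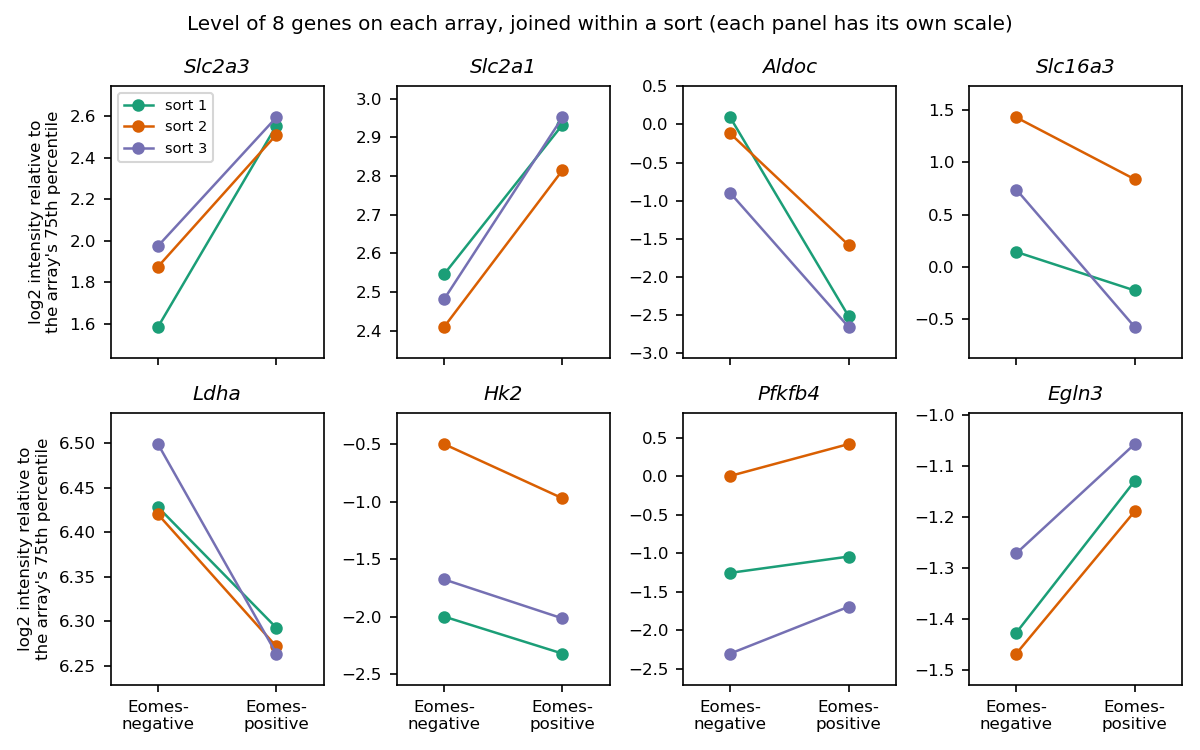
Log2 intensity of 8 genes relative to the 75th percentile of each array, in Eomes-negative and Eomes-positive cells, with lines joining the 2 samples of a sort. Every line goes up for Slc2a3, Slc2a1, Pfkfb4 and Egln3 and down for Aldoc, Slc16a3, Ldha and Hk2, while the sorts lie far apart for Hk2 and Pfkfb4.

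The hexokinases, which phosphorylate incoming glucose, did not pass the test. Hk2, the inducible isozyme, had levels of -1.9995, -0.50 and -1.68 in Eomes-negative and -2.32, -0.97 and -2.02 in Eomes-positive cells of sorts 1, 2 and 3. The Eomes-positive sample was the lower one in each sort, but sort 2 stood above the others in both groups and the groups overlapped. The difference was -0.38, with an SE of 0.52 for group alone (adjusted p = 0.947) and 0.09 with sort as a factor (adjusted p = 0.0953, limma). Hk3, the isozyme of myeloid cells, varied most between sorts, with sort means of -3.72, -1.56 and -4.08. Its differences of -0.09, -0.18 and 1.30 had no common direction. Hk1, the constitutive isozyme, differed by -0.11 (95% interval -0.36 to 0.14 with sort as a factor) on its brighter chromosome 10 probe and by -0.15 on the other. A still brighter probe that carries the name Hk1 lies on chromosome 5, not on the chromosome of the gene. It pointed the other way, at 0.20, and was not used. Gpi1, the isomerase after hexokinase, differed by -0.07 with an interval of -0.35 to 0.21, and its 3 overlapping probes gave -0.11 to -0.07.

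Phosphofructokinase is the committing step of glycolysis, and its 3 isozyme genes were measured on all arrays. The platelet-type isozyme Pfkp had levels of 0.80, 0.72 and 1.56 in Eomes-negative and 1.497, 1.06 and 1.77 in Eomes-positive cells. It was higher in the Eomes-positive sample of each sort, while the groups overlapped because sort 3 was highest in both. Its difference was 0.42 ± 0.30 (SE), with an adjusted p of 0.775 for group alone and 0.152 with sort as a factor (limma). It was 0.25 without the Eomes-positive and 0.68 without the Eomes-negative array of sort 3. The muscle-type Pfkm differed by 0.23 and the liver-type Pfkl by -0.01, and Pfkl was higher in sort 3 in both groups, with sort means of -0.67, -0.90 and 0.64.

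PFKFB enzymes make and degrade the sugar bisphosphate that activates phosphofructokinase. Pfkfb1, first known from liver, had the fourth largest difference of the 34 in size. Its levels were -3.98, -4.42 and -3.82 in Eomes-negative and -3.87, -3.40 and -2.96 in Eomes-positive cells. The step was 0.10 in sort 1 and 1.02 and 0.86 in sorts 2 and 3, and the lowest Eomes-positive value lay below the highest Eomes-negative one. The difference of 0.66 ± 0.29 (SE) had an adjusted p of 0.468 for group alone and 0.158 with sort as a factor (limma). Pfkfb4 had -1.25, 0.01 and -2.30 in Eomes-negative and -1.04, 0.42 and -1.69 in Eomes-positive cells. Sort 2 was highest and sort 3 lowest in both groups, and the Eomes-positive sample was the higher in each sort. Its difference was 0.41, with an SE of 0.77 for group alone and 0.12 with sort as a factor (adjusted p = 0.967 and 0.127, limma). Pfkfb3, the isozyme of proliferating cells, differed by 0.15 on its bright probe and by -0.18 on a probe above background on 4 arrays. Pfkfb2 differed by 0.04, between -0.40 in sort 1 and 0.67 in sort 3.

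Aldolase cleaves the sugar bisphosphate into a pair of trioses. Aldoa, the aldolase of most cells, and Aldoc, known as the brain isozyme, did not share a pattern. Aldoc (probe at mm9 chr11:78140198-78140257) had 0.09, -0.12 and -0.90 in Eomes-negative and -2.51, -1.58 and -2.65 in Eomes-positive cells of sorts 1, 2 and 3. All Eomes-positive values were below all Eomes-negative ones. The fall was 6.08-fold, 2.75-fold and 3.38-fold in the 3 sorts. The means were -2.25 ± 0.58 and -0.31 ± 0.52 (SD, n = 3 each), a difference of -1.94 ± 0.39 (SE), that is 3.84-fold lower in Eomes-positive cells. The adjusted p was 0.0788 for group alone, 0.0292 with sort as a factor and 0.0344 with slide as a factor (limma). Leaving out any sort kept a difference of -2.18 to -1.61, but each ended the call with sort as a factor, at adjusted p of 0.0683 to 0.107. Within slide 1 Aldoc differed by -2.50 and within slide 3 by -1.76. Aldoa differed by -0.09, with an interval of -0.34 to 0.16 with sort as a factor.

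The first of the 2 Aldoc promoter windows, chr11:78322823-78323122 on the plus strand of GRCm38.p6, is shown because Aldoc had the largest difference of the 34. Capitals again mark ACGTG and GCGTG on either strand.
Aldoc promoter: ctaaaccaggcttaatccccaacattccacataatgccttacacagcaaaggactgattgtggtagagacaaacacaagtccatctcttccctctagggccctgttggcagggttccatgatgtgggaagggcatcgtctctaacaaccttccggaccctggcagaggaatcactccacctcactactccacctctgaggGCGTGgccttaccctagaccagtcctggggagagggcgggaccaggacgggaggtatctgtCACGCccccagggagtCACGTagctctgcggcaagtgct
It held 1 ACGTG and 2 GCGTG. The second window, chr11:78323948-78324247, held 0 ACGTG and 1 GCGTG.

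From triose phosphate isomerase to enolase, 0 of the 8 remaining genes passed either fit. Bpgm, the bisphosphoglycerate mutase best known from red cells, had 1.29, 1.23 and 1.45 in Eomes-negative and 0.71, 0.98 and 1.23 in Eomes-positive cells. The Eomes-positive sample was lower in each sort, and the highest Eomes-positive value lay just below the lowest Eomes-negative one. Its difference was -0.35 ± 0.18 (SE), with an adjusted p of 0.586 for group alone and 0.165 with sort as a factor (limma). The erythroid transcript Hba-a1 had sort means of 4.16, 7.32 and 7.33, and those of Bpgm were 1.00, 1.10 and 1.34. The part of red cell transcripts in the Bpgm value was not tested.

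Tpi1, Gapdh, Pgk1, Pgam1, Eno1, Eno2 and Eno3 carry out the triose steps, with Pgk1 as the first ATP-yielding one. They differed by between -0.16 (Gapdh) and 0.39 (Eno2). Gapdh, often taken as a reference transcript, had 7 probes with differences of -0.17 to -0.08. Of these, 5 lie on its own chromosome 6, 1 on chromosome 8 and 1 on chromosome X. Gapdh had sort means of 5.09, 5.33 and 6.00, so it varied more between sorts than between groups. Pgk1 differed by -0.16 on its chromosome X probe and by -0.18 on a probe placed on chromosome 3. Eno1 has 1 probe, which is placed on chromosome 2 although the gene lies on chromosome 4, and its -0.07 is uncertain for that reason. Processed copies of Gapdh, Pgk1 and Eno1 in the genome may share these probes. Eno2 was above background on 4 arrays and differed by 0.11, 0.96 and 0.11 in the 3 sorts.

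Pkm, the pyruvate kinase of T cells, differed by 0.01 with an interval of -0.43 to 0.45 with sort as a factor. Its sort differences of 0.16, 0.25 and -0.37 had no common direction, and its sort means were 2.95, 3.21 and 3.98. The array has 1 probe for the gene and does not separate the splice forms.

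Lactate dehydrogenase A makes lactate from pyruvate. On its brightest probe Ldha had 6.43, 6.42 and 6.499 in Eomes-negative and 6.29, 6.27 and 6.26 in Eomes-positive cells. The groups did not overlap and spanned less than 0.1 each. The difference of -0.17 ± 0.12 (SE) did not pass the test (adjusted p = 0.761 for group alone and 0.300 with sort as a factor, limma). The other probes of Ldha gave larger differences of the same sign. The probe at mm9 chr7:54107294-54107353, 3643 bases 5′ of the brightest one on the genome, gave -0.30, and the probe at chr7:54103010-54103069, 7927 bases 5′ of it, gave -0.50 (adjusted p = 0.292 and 0.160 with sort as a factor and 1 row per probe, limma). In sort 3, made from 4 ng, these 2 probes gave -0.62 and -0.87. The 2 probes are shown because they decide how large the Ldha difference appears, with the 5′-most first.
Ldha 5′-most probe: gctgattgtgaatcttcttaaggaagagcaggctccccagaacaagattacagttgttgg
Ldha middle probe: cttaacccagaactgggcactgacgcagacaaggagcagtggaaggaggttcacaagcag
The brightest probe, at chr7:54110937-54110996, is nearest the 3′ end. Ldhb, the isozyme that favours pyruvate, differed by 0.20, between 0.01 in sort 3 and 0.46 in sort 2.

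The first Ldha promoter window is given beside those of Slc2a1 and Aldoc because it also holds E-boxes. It spans chr7:46845554-46845853 on the plus strand of GRCm38.p6 and held 5 separate stretches with a HIF core. An E-box reads ACGTG on both strands, so by strand its 2 E-boxes and 1 other site gave 5 matches of ACGTG, beside 2 of GCGTG.
Ldha promoter: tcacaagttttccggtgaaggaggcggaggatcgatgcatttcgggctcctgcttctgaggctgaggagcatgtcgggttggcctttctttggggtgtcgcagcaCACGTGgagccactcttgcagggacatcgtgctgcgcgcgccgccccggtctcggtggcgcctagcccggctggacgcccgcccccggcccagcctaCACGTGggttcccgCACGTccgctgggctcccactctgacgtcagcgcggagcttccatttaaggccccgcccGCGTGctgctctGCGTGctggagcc

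Monocarboxylate transporters carry lactate across the membrane. Slc16a3, which encodes the lactate exporter MCT4, had 0.14, 1.43 and 0.74 in Eomes-negative and -0.23, 0.84 and -0.58 in Eomes-positive cells of sorts 1, 2 and 3. The Eomes-positive sample was the lower in each sort, by 0.37, 0.59 and 1.32, and the groups overlapped because sort 2 was high in both. The difference was -0.76 ± 0.49 (SE), 1.70-fold lower, with an adjusted p of 0.711 for group alone and 0.128 with sort as a factor (limma). A second probe that overlaps the first gave -0.81. Slc16a1, which encodes MCT1, differed by -0.09, between -0.72 in sort 3 and 0.31 in sort 2.

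Pdha1, the catalytic subunit of pyruvate dehydrogenase, and Pdk1, the kinase that inhibits it, differed by -0.09 and -0.03. Their intervals with sort as a factor were -0.34 to 0.15 and -0.39 to 0.32.

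The 4 HIF pathway genes differed by 0.26 or less in size. Hif1a, the oxygen-regulated subunit, differed by 0.06, with an interval of -0.26 to 0.37 with sort as a factor. Vhl, which recognises hydroxylated HIF-1α, differed by 0.02 and the prolyl hydroxylase gene Egln1 by -0.04. Egln3, the prolyl hydroxylase that HIF itself induces, had -1.43, -1.47 and -1.27 in Eomes-negative and -1.13, -1.19 and -1.06 in Eomes-positive cells. All Eomes-positive values were above the Eomes-negative ones by a small step, of 0.30, 0.28 and 0.21 in the sorts. The difference was 0.26 ± 0.13 (SE), with an adjusted p of 0.573 for group alone and 0.163 with sort as a factor (limma), and 0.05 on a second, dimmer probe. Since HIF-1α is set mainly by protein stability, these levels do not measure its activity.

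The range of the 3 sort means was larger than the group difference for 24 of the 34 genes (70.6%, against 77.7% of all genes). Its median was 0.32, beside 0.50 over all genes. Slc2a3, Slc2a1 and Aldoc were among the 10 exceptions. A range of 3 means of 2 arrays each tends to exceed a difference of 2 means of 3 arrays each, even without an effect. The count therefore does not rank sort above group, and the share was not above that of all genes. Hk2, Hk3, Pfkfb4, Eno3 and Slc16a3 were highest in sort 2 in both groups. For Hk2 the sort means were -2.16, -0.74 and -1.85, for Pfkfb4 -1.15, 0.21 and -1.997, and for Slc16a3 -0.04, 1.14 and 0.08. The myeloid genes Lyz2 (0.39, 5.25 and 2.66), Csf1r (1.26, 4.44 and 0.64) and Adgre1 (-1.14, 2.52 and -1.82) were also highest in sort 2. So were Cd14 and Mpo of the same list, but Itgam (3.22, 3.47 and 4.68) was highest in sort 3. The part of myeloid cells in the sort pattern of these glycolytic genes was not tested. Slc2a3, Pfkl, Pfkp, Pfkfb1, Aldoa, Gapdh, Bpgm, Pgam1, Eno1, Eno2, Pkm and Egln3 were highest in sort 3 in both groups. That was the sort of the youngest mice and of the smaller RNA input. Age, RNA input and slide cannot be told apart there.

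**Figure D3:**
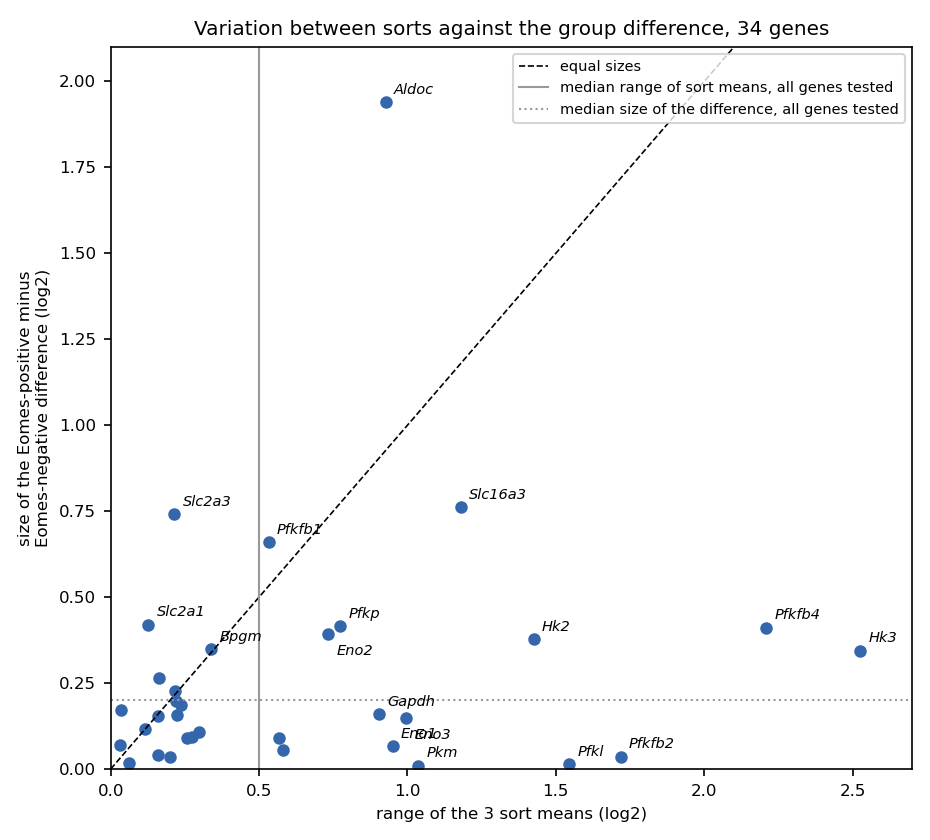
Range of the 3 sort means (horizontal, log2) against the size of the Eomes-positive minus Eomes-negative difference (vertical, log2) for the 34 genes, with the medians over all genes tested as grey lines. For the 24 genes below the dashed line the range is larger than the difference, Hk3 and Pfkfb4 most of all, while Aldoc, Slc2a3 and Slc2a1 lie above it.

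Related lists were read in the same fits. Of 30 other glycolysis and pyruvate genes, 18 were tested, with a median difference of -0.03 and 0 called with group alone. With sort as a factor 1 rose, Pdpr, a regulator of pyruvate dehydrogenase phosphatase, at 0.51 (adjusted p = 0.0492). The 9 pentose phosphate genes had a median of 0.02 and 1 call, lower, in both fits. This was Tktl1, a transketolase-like gene, with -0.55, -1.01 and -0.84 in Eomes-negative and -4.79, -4.24 and -4.95 in Eomes-positive cells. Tktl1 was above background on all Eomes-negative and 2 of 3 Eomes-positive arrays, and its difference was -3.86 ± 0.24 (SE, adjusted p = 0.0026, limma, group alone). Its Eomes-negative arrays alone met the filter on dim probes. Its call is therefore weak support, and the size of its fall is uncertain. The main transketolase gene Tkt differed by 0.02. All 16 TCA cycle genes were tested, with a median of -0.01 and 0 calls in either fit.

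Outside the 34 genes, 13 HIF pathway genes were tested. Of the 12 above background in both groups, with a median of 0.002, 0 were called in either fit. Arnt2, a partner of HIF-α subunits known mainly from neurons, had -4.17, -3.16 and -2.26 in Eomes-negative and -7.36, -7.15 and -6.41 in Eomes-positive cells. It was not well above background on any Eomes-positive array and entered the test through the Eomes-negative arrays alone, so its call is no support. Its level in Eomes-positive cells was lower by at least 2.81-fold, where "at least" sets each dim array to its lowest signal well above background. Arnt, the usual partner, differed by 0.12, and Epas1, which encodes HIF-2α, by -0.29.

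Of 26 HIF target genes outside the 34, 22 were tested and 21 were above background in both groups, with a median of -0.05. Of these 21, 0 rose and 0 fell with group alone, and with sort as a factor 0 rose and 2 fell (9.52%). The share over all genes tested was 4.33%, but it also covers genes above background in 1 group alone. The gene left aside is P4ha2, a collagen prolyl hydroxylase subunit, with -4.44, -3.26 and -2.97 in Eomes-negative and -7.10, -6.35 and -6.35 in Eomes-positive cells. It too entered the test through the Eomes-negative arrays alone, and its level in Eomes-positive cells was lower by at least 2.20-fold. Ero1a, an endoplasmic reticulum oxidase, had -1.98, -2.02 and -1.13 in Eomes-negative and -3.16, -3.45 and -3.08 in Eomes-positive cells. Its groups did not overlap, and its fall of 2.86-fold passed with sort as a factor (adjusted p = 0.0231) but not with group alone (0.0619, limma). Ddit4, an inhibitor of mTORC1, had 5.95, 5.69 and 5.52 in Eomes-negative and 4.96, 4.62 and 4.34 in Eomes-positive cells. It fell 2.11-fold, again without overlap and again only with sort as a factor (adjusted p = 0.0136, and 0.0788 with group alone, limma). The other 4 targets with a difference over 0.5 in size, named after their values were seen, pointed both ways. Ndrg1 differed by -1.91 and Stc2 by -1.70, and Car12 by 1.1999 and Bhlhe40 by 0.87. Their groups did not overlap, but none of these 4 passed limma with group alone (adjusted p = 0.155 to 0.573) or with sort as a factor (0.0676 to 0.203). Car12 was above background on 3 of the 6 arrays and Stc2 on 5. Among the targets closest to 0 were Mif at 0.01 and Higd1a at 0.002.

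Among 22 regulators of glycolysis, 21 were tested, with a median of 0.15 and 0 calls with group alone. With sort as a factor 0 rose and 2 fell, Mycn and Irf4 (9.52%, against 4.33% of all genes). Since the call of Mycn is weak, no excess over all genes is read from this share. Mycn, a Myc family factor, had -3.37, -2.40 and -2.57 in Eomes-negative and -7.45, -4.92 and -6.44 in Eomes-positive cells (adjusted p = 0.0178 with sort as a factor, 0.0651 with group alone, limma). Mycn was above background on 1 of the 3 Eomes-positive arrays, and its Eomes-negative arrays alone met the filter on dim probes. Its call is therefore weak support, and the size of its fall is uncertain. Irf4, a factor induced by antigen receptor signals, had -1.32, -0.52 and -0.84 in Eomes-negative and -2.60, -1.61 and -3.05 in Eomes-positive cells (adjusted p = 0.0476 with sort as a factor, 0.182 with group alone, limma). Myc itself differed by 0.16, and Mtor by 0.60 without passing either fit.

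**Figure D4:**
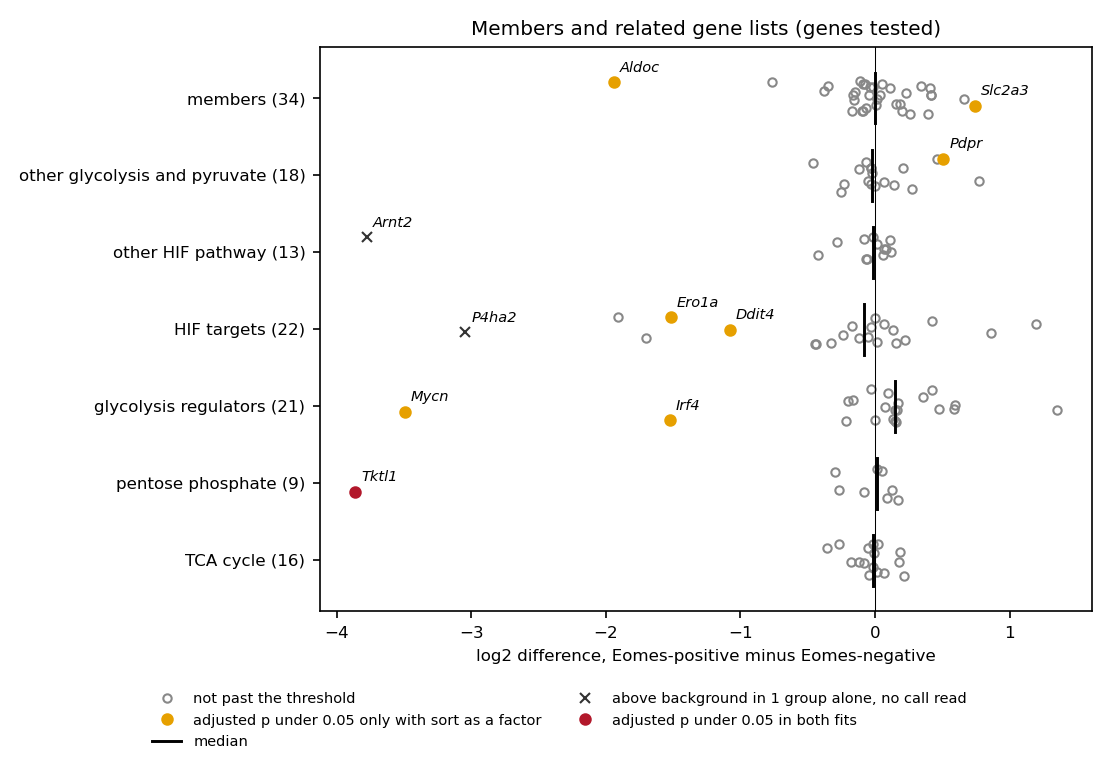
Log2 difference of Eomes-positive minus Eomes-negative cells (horizontal) for the tested genes of each list, with the number tested in brackets. Points are genes, short black lines the median, orange points pass at an adjusted p under 0.05 only with sort as a factor, red points pass in both fits, and crosses mark genes above background in 1 group alone, from which no call is read. The medians lie between -0.08 and 0.15. Tktl1 is the 1 red point, and its Eomes-negative arrays alone met the filter on dim probes.

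Markers of dividing cells, αβ T cells and NK cells are given beside these lists. The summed level of 6 proliferation genes, as a multiple of the 75th percentile, was 0.247 to 1.25 in Eomes-positive and 0.693 to 1.89 in Eomes-negative cells. Top2a, a marker of dividing cells, fell by 1.15 on the log2 scale in Eomes-positive cells with sort as a factor (adjusted p = 0.0212, limma) and 1 of the 5 proliferation genes tested was called in that fit. The summed level of 3 αβ T cell genes was 3.01 to 3.32 and 8.28 to 11.2, and Cd8b1, whose protein was a depletion target, was lower in both fits, at -2.86 (adjusted p = 0.0194, limma, group alone). The NK cell receptor genes Ncr1 and Klra8 were higher in the Eomes-positive sample of every sort without overlap, by 1.70 and 1.64, and passed neither fit (adjusted p = 0.184 and 0.290 with group alone, 0.0651 and 0.0692 with sort as a factor, limma). Their summed level was 4.45 to 7.36 in Eomes-positive and 1.01 to 3.99 in Eomes-negative cells. The part of dividing cells, residual CD8 cells, NK cells or myeloid cells in the differences of Aldoc, Slc2a3 and the HIF targets was not tested.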

How the data were processed

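Cells were measured on 6 one-colour arrays, 3 sorts with a sample of each group. Per the file headers, the deposited spot values are intensities on a linear scale from Agilent Feature Extraction 10.7.3.1, background-subtracted and detrended, and the other columns used from the authors' scanner files are the flags for signal above background, saturation and outliers. The authors' deposited value table holds 1 intensity per probe.

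From the 162570 spots of an array (4854 controls), the 4 spots of each of 39429 probes were averaged as log2 intensity without outlier spots, and the array's 75th percentile was subtracted. Probes were named by RefSeq accession (27508 probes, of which 2017 got a new name) or else by the scanner file. The brightest probe placed (mm9) on the gene's chromosome stood for it, or the brightest of all where none was. A gene was tested where at least 50% of spots were above background on at least 3 arrays. limma 3.58.1 (R 4.3.3) fitted the group, with Benjamini-Hochberg adjustment over all genes at 0.05, and was tested on simulated data. The other fit added the replicate number as a block, since the same number marks 1 sort. Deviations from the group means correlated at 0.81, 0.82 and 0.81 for samples of one number, so the numbers pair the samples. The values of -0.57 to -0.26 otherwise add no support, since centring each group on its mean pushes them below 0. Tables and plots used Python 3.11.15, pandas 2.3.3 and matplotlib 3.10.9.

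Genes with full values are those called in either fit and the 8 next largest differences among genes above background on all arrays; other genes are given by role, and up to 3 called genes per related list. Ldha is described in full outside this rule, chosen after its values were seen because its 3 probes differ. The 34 genes, the lists and the motifs were chosen with earlier results of these data known. Sorts pool spleens and are the only replication, and 6 arrays limit the precision. Sequences are RefSeq's (GRCm38.p6) or the scanner files'. A promoter of Slc2a3 and protein sequences were not used here.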

Additional observations from a re-analysis of the deposited data

How the results depend on the processing

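Under the listed settings other than the block and slide, 0 of the 34 genes were called in either direction, as with group alone. The replicate block gave 1 higher (Slc2a3) and 1 lower (Aldoc), and slide as a factor gave 1 lower (Aldoc). The block changed no other call among the 34. Settings added after seeing the data joined the block to other processing. With quantile normalization, the deposited value table or the mean of all probes they gave 1 higher and 1 lower, and with normexp background or median scaling 2 higher, as Slc2a1 joined (adjusted p = 0.0375 and 0.0469), and 1 lower. With the block, leaving out any sort gave 0 and 0. Over all genes the calls went from 197 higher and 257 lower to 599 and 710 with the block and to 91 and 154 with no filter on dim probes. Without 1 sort or 1 array, calls over all genes were 0 to 101 higher and 0 to 181 lower, with 0 in both directions without sort 1 or without sort 2, where 1354 and 1267 genes had an unadjusted p under 0.05 in limma. The median difference of the 34 genes moved to 0.10 under median scaling, with or without the block, which shifts all genes (their median went from -0.01 to 0.09), and was -0.05 to 0.06 on leaving out arrays or sorts. In the added settings, genes above in every array were 6 under quantile normalization (Pfkfb1, Pfkm and Pgam1 joined), and genes below were 1 under median scaling (Aldoc).

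Across the 17 settings, 15 of the 34 genes kept one direction and 19 did not, each with a difference of at most 0.41 in size. Median scaling turned Gpi1 to 0.028, Pfkl to 0.085, Aldoa to 0.0080, Eno1 to 0.031, Slc16a1 to 0.0069, Pdk1 to 0.064, Pdha1 to 0.0050 and Egln1 to 0.056. Slide as a factor turned Hk3 to -0.12, Pfkl to 0.036, Pkm to -0.13 and Vhl to -0.028. Normexp turned Pfkfb2 to -0.094, the mean of all probes turned Pfkfb3 to -0.010, and quantile normalization turned Egln1 to 0.0064. Without 1 sort or 1 array the ranges were Egln1 -0.11 to 0.061, Eno1 -0.31 to 0.29, Eno3 -0.45 to 0.20, Gapdh -0.40 to 0.13, Hif1a -0.11 to 0.28, Hk1 -0.18 to 0.0062, Hk2 -0.78 to 0.069, Hk3 -0.38 to 1.26, Pdk1 -0.16 to 0.079, Pfkfb2 -0.62 to 0.51, Pfkfb4 -0.18 to 1.00, Pfkl -0.45 to 0.51, Pkm -0.24 to 0.41, Slc16a1 -0.29 to 0.22 and Vhl -0.095 to 0.10. Of the genes that kept their direction, over all 17 settings, Slc16a3 ran from -1.18 to -0.43 and Pfkfb1 from 0.28 to 0.94. Pfkp ran from 0.25 to 0.68 and Bpgm from -0.48 to -0.22. The cause was not tested. Signals near background limit Hk3, Pfkfb2 and Eno2.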
